A study of Mus musculus with 6 samples.

Results

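An accessible site that lies at the ends of 2 or more neighbouring genes cannot be given to either of them by position alone. Such shared sites were studied in 1 ATAC-seq peak list, in which the transposase Tn5 marks open DNA. They were the peaks on chromosomes 1 to 19, under 2000 bp wide, that overlapped windows of 1 kb either side of the annotated ends of 2 or more different protein-coding genes of the RefSeq annotation of GRCm38.p6 (mm10). The rule selected 2151 of the 77629 peaks of the list. They made up 14.2% (Wilson 95% interval 13.7 to 14.8) of the 15108 peaks of that width at any gene end on those chromosomes. The cells were E14 mouse embryonic stem cells with an NSD1-dTAG knockin, a fusion through which dTAG-13 can direct the H3K36 methyltransferase NSD1 to degradation. They were grown on gelatin in 2i/LIF medium, which holds MEK and GSK3 inhibitors and the cytokine LIF, and received no dTAG-13. The series has 5 further samples, namely the same cells after 1, 6 or 24 h in 500 nM dTAG-13 and day 6 embryoid bodies that did or did not receive the compound. These were not used here, and the values below say nothing of NSD1 loss.

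Neighbouring genes can face each other in 3 ways. In a head-to-head pair the starts lie side by side and the genes run apart on opposite strands, and the DNA between them is called a bidirectional promoter. In a head-to-tail pair the start of a gene follows the 3' end of its neighbour on the same strand, and in a tail-to-tail pair the 3' ends of 2 genes meet. Bidirectional promoters are common in mammals, are mostly rich in CpG dinucleotides and are known from genes of DNA repair, metabolism and the mitochondria. A promoter is usually open where its gene is transcribed, while most 3' ends are not.

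There was 1 library, so no value has a replicate and no test between conditions was made. Intervals are 95% Wilson intervals for shares and exact Poisson intervals for pileups, and cover counting error only. Peak height is given as a pileup, which counts the reads or fragments that cover the summit base, and as the fold enrichment over local background that the authors' peak list gives. The lowest pileup in the list was 6. The label of the cells was set against gene lists. A peak at 1 or both ends was found for 67.3% of all 20661 protein-coding genes on these chromosomes. It was found for 87.5% of 32 core and naive pluripotency genes and for 6 of 24 genes of adult tissues. Germ layer regulators (71.9% of 32) and Hox genes (89.7% of 39) also lay above all genes, so this share does not tell the cell type.

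Several pairs that are known for a common promoter show what the shared sites look like in sequence. The 300 bases of RefSeq (GRCm38.p6) from 250 bases before the gene's listed start to 50 bases after it are given on the gene's own strand for 8 such pairs, each with 1 shared peak. Capitals mark matches, on either strand, to the 6 motifs searched, of which those of SP1, ETS and NFY occur in these windows. The SP1 motif was searched as GGGCGG, the sequence of a GC box to which the zinc finger factor SP1 binds. For the ETS family of factors the letters CCGGAAG were searched in each promoter window. The NFY motif was CCAAT, bound by a trimeric factor of the same name. The other motifs were a TATA box, searched as TATAAA, and the core motifs of the factors NRF1 and YY1. No motif contains another.
Mrps12 promoter: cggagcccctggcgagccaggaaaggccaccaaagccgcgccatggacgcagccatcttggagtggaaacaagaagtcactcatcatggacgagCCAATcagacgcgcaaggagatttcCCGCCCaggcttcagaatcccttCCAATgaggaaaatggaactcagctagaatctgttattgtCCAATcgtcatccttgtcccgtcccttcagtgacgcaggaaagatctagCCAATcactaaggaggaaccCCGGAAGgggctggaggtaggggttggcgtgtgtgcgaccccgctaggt
Mcm7 promoter: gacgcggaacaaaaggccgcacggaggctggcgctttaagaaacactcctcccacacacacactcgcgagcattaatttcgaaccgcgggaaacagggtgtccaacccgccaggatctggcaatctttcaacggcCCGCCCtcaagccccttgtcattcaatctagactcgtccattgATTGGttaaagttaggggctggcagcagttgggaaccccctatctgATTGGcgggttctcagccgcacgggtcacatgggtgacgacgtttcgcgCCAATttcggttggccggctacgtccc
Brca1 promoter: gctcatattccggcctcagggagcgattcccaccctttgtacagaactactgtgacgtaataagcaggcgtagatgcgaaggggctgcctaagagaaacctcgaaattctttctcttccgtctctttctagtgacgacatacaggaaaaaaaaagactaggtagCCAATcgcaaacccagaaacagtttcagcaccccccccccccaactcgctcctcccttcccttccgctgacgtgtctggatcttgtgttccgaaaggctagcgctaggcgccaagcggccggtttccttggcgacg
Hspe1 promoter: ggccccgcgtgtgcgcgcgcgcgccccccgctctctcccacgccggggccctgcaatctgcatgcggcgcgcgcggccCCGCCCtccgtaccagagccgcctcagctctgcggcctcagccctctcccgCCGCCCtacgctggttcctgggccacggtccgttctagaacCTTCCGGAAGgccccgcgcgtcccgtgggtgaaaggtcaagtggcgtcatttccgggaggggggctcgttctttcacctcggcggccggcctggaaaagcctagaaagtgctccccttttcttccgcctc
Jmjd6 promoter: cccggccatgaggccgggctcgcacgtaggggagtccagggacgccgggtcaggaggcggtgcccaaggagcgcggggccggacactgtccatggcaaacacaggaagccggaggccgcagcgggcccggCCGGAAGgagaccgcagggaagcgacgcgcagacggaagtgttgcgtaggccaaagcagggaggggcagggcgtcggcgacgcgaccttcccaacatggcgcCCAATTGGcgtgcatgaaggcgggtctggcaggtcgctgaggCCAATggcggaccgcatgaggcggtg
Ercc8 promoter: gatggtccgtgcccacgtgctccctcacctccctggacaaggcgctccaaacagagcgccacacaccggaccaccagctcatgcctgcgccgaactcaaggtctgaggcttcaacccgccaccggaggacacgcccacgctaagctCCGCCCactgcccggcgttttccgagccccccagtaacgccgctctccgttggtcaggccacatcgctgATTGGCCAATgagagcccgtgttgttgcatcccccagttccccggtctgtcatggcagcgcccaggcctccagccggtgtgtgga
Tap1 promoter: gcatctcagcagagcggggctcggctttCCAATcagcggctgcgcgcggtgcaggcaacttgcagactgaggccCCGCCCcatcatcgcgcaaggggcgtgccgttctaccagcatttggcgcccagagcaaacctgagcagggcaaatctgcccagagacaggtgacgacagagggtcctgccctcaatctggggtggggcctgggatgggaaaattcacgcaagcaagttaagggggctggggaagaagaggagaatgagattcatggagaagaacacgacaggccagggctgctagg
Sirt3 promoter: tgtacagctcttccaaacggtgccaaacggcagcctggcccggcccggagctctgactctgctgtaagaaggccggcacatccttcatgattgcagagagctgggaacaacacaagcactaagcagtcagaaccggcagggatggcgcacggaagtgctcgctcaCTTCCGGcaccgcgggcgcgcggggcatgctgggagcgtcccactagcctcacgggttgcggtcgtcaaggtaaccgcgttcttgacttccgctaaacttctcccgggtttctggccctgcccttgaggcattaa
In 7 of these windows the start of the partner gene, on the opposite strand, falls inside the sequence shown. Bases are counted from 1 at the 5' end. In the Mrps12 window (chr7:28741772-28742071, minus strand) the partner Sars2 starts at base 104, and the window holds 4 copies of CCAAT and 1 each of the SP1 and ETS motifs. In the Mcm7 window (chr5:138171834-138172133, minus strand) Ap4m1 starts at base 113, with 3 copies of CCAAT. In the Brca1 window (chr11:101551906-101552205, minus strand) Nbr1 starts at base 99. In the Jmjd6 window (chr11:116843400-116843699, minus strand) Mettl23 starts at base 185, and in the Ercc8 window (chr13:108158488-108158787, plus strand) Ndufaf2 starts at base 138. In the Tap1 window (chr17:34187306-34187605, plus strand) Psmb9 starts at base 25, and in the Sirt3 window (chr7:140882260-140882559, minus strand) Psmd13 starts at base 166. The Hspe1 window (chr1:55087898-55088197, plus strand) ends short of the listed start of Hspd1 and holds 2 copies of the SP1 motif and 2 matches to the ETS motif that overlap on opposite strands. A match is a description of the letters, not evidence that the factor binds.

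Where both strands were known, most shared peaks lay at the starts of genes that run apart. Of the 2151 peaks, 2094 (97.4%) met the ends of exactly 2 genes, 54 met 3 and 3 met more. The promoter table gives a strand for 79.6% of the genes, and both strands were known for 1523 of the 2094 peaks. Among these, 877 (57.6%, 55.1 to 60.04) were head to head, 415 (27.2%) head to tail and 156 (10.2%) tail to tail. In 46 a start met a 3' end on the opposite strand, in 24 the starts and in 5 the 3' ends lay on 1 strand. The 2 genes overlapped in 670 of the 2094 peaks (32.0%). Of 2012 gene pairs, 81 shared more than 1 peak.

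Nearly every head-to-head pair had a shared peak. All pairs of protein-coding gene ends at most 1 kb apart, chosen without the peaks, numbered 872 head to head, 496 head to tail and 705 tail to tail. A shared peak was present at 95.4% of head-to-head pairs (93.8 to 96.6), 69.4% of head-to-tail pairs (65.2 to 73.3) and 20.9% of tail-to-tail pairs (18.01 to 24.0). Single gene ends with no other protein-coding gene end within 2 kb, called lone below, gave the rates for comparison. A peak was present at 65.1% of 11456 lone starts (64.2 to 66.0) and at 13.1% of 11236 lone 3' ends (12.5 to 13.8). The head-to-tail share lay close to that of lone starts, and the tail-to-tail share lay above that of lone 3' ends. A pair of any kind has a second end at which to meet a peak. Counted per end instead of per pair, 95.6% of head-to-head starts and 24.5% of tail-to-tail 3' ends had a peak. This count does not remove the second end, because a peak near either of 2 close ends mostly counts for both. Only 3 head-to-head pairs had a peak at 1 end alone. Pairs and lone ends are therefore not compared like for like. On each of the 18 chromosomes with listed strands the head-to-head share, from 88.0% on chromosome 16 to 100%, was above that of lone starts, whose highest share was 72.3%, on chromosome 12.

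**Figure D1:**
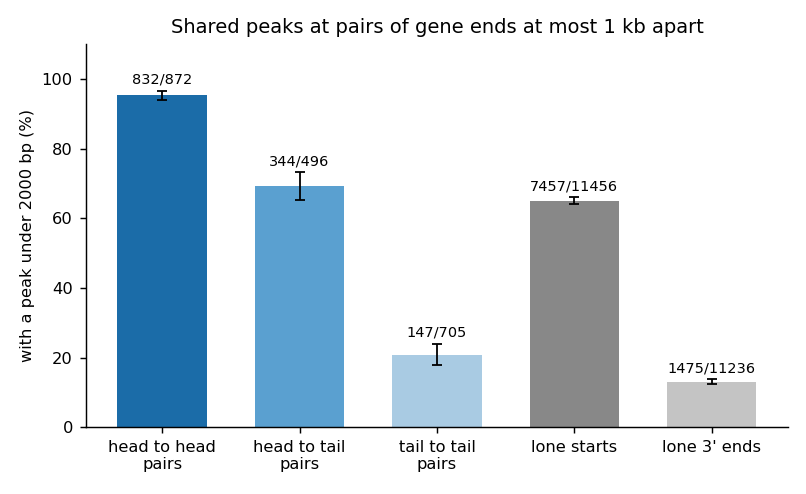
Share of pairs of gene ends at most 1 kb apart with a shared peak, in percent, beside the share of lone starts and lone 3' ends with a peak. Bars are shares in 1 library, error bars Wilson 95% intervals, and the counts stand above; head-to-head pairs reach 95.4%, tail-to-tail pairs 20.9%.

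The head-to-head pairs without a shared peak fell into 3 kinds. Of these 40 pairs, 16 had a peak of 2000 bp or more across both starts, 3 had a peak at 1 start only and 21 had none. The pairs with a wide peak included Hnrnpa2b1/Cbx3, whose starts are 106 bp apart and which encode an RNA-binding protein and a heterochromatin protein, Mrpl40/Hira (113 bp) and the histone pair H2bc23/H2ac23 (168 bp). The 21 without a peak included Ifit1/Ifit1bl2, interferon-induced genes with starts 62 bp apart, Mpig6b/Ly6g6c (477 bp), the whey acidic protein family genes Wfdc6b/Wfdc8 (115 bp) and the major urinary protein pair Mup15/Mup-ps12 (756 bp). These examples were chosen after their values were seen. The Mup genes have near-identical copies, so a missing peak there is uncertain.

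Head-to-head peaks had the highest median pileup of the classes of shared peaks. Their median pileup was 92 (quartiles 64 and 128, 877 peaks), against 62 (34 and 96) for 7874 peaks at lone starts, a ratio of 1.48. On 18 of 18 chromosomes the ratio was above 1, with its lowest value on chromosome 15 (1.06) and its highest on chromosome 13 (1.94). A pileup of 100 or more was reached by 44.2% of head-to-head peaks and by 23.0% of lone-start peaks. In median fold enrichment the classes lay nearer, at 12.5 for head-to-head and 11.0 for lone-start peaks, with a ratio above 1 on 17 of 18 chromosomes. Head-to-head peaks were also wider, with a median of 995 bp against 874 bp. Among peaks of 500 to under 1000 bp the median pileups were 87 for head-to-head and 64 for lone-start peaks, and among those of 1000 to under 1500 bp they were 100.0 and 76. The ratio of median pileups was 1.31 or more in each of the 4 width ranges compared. By fold the medians of peaks under 500 bp were nearly equal, at 5.216 for head-to-head and 5.214 for lone-start peaks. In each wider range the head-to-head median fold was higher, for example 12.4 against 11.6 at 1000 to under 1500 bp.

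Head-to-tail and tail-to-tail peaks were lower. Head-to-tail peaks had a median pileup of 71 (44.5 and 100.5, 415 peaks), a ratio of 1.15 to lone starts that was above 1 on 13 of 16 chromosomes with at least 10 such peaks. By fold their median of 10.1 was below the 11.0 of lone starts. Where the ends were 200 bp to 1 kb apart, the summit lay nearer to the start than to the neighbour's 3' end in 237 of 260 head-to-tail pairs (91.2%, 87.1 to 94.0). Tail-to-tail peaks had a median pileup of 28 (16 and 49, 156 peaks), against 23 (14 and 39) for 1551 peaks at lone 3' ends and 20 (13 and 35) for peaks at no gene end. By fold they were not higher, with a median of 5.37, against 5.96 at lone 3' ends and 6.52 at no gene end. Their median width was 476.5 bp. A start of any gene in the promoter table lay within 1 kb of 8 of the 156 tail-to-tail peaks (5.13%), and within 1 kb of 60 of the 1551 lone 3' end peaks (3.87%). Over all classes the shared peaks had a median pileup of 75, against 51 for peaks at the end of 1 gene alone. This ratio of 1.47 was above 1 on 19 of 19 chromosomes. By fold the medians lay nearer, at 10.8 and 9.75, a ratio of 1.11 that fell to 1.002 on chromosome 10. Both sets mix starts and 3' ends. Shared peaks made up 13.1% of the tallest 10% of peaks and 0.428% of the lowest 10%. Their share was 2.87% of all 74824 peaks under the width limit on chromosomes 1 to 19.

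**Figure D2:**
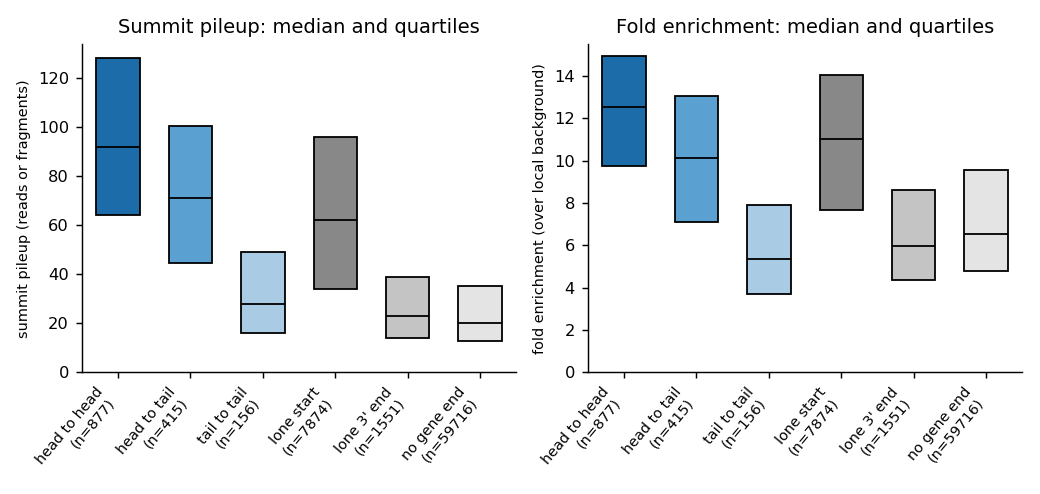
Summit pileup (left, reads or fragments) and the authors' fold enrichment (right) by class of peak, with the number of peaks under each label. Boxes run from the lower to the upper quartile and the line is the median; head-to-head peaks stand at 92 and 12.5, lone-start peaks at 62 and 11.0.

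The starts of head-to-head pairs were mostly close together, and the summit mostly lay near the starts and the midpoint between them. The median signed distance between the 872 pairs of starts was 42.5 bp, with quartiles of -107 and 143, where a negative value means that the genes overlap at their 5' ends, as 305 pairs did. The median distance from the summit of the tallest shared peak to the midpoint between the starts was 89 bp, and 77.3% of summits lay within 250 bp of the midpoint. Within 250 bp of the start lay 75.5% of head-to-head summits, counted from both starts, and 70.5% of summits at lone starts. Nearness to the midpoint is thus not set apart from nearness to a start. Measured from the start, with positive values downstream, the median summit position was -30 bp (quartiles -107 and 76.3) in head-to-head pairs and 25 bp (-60 and 223) at lone starts. Each head-to-head summit was counted from both starts, so its positions add up to minus the signed distance between the starts. A median before the start therefore follows in part from starts that lie apart. Whether the summits lie elsewhere than at lone starts was not tested. Among pairs with a shared peak, the summit fell between the starts in 32.9% where the genes overlapped and in 23.1% at less than 100 bp. It did so in 67.8% from there to 250 bp, 66.3% to 500 bp, 61.1% to 1000 bp and 50.0% to 2000 bp. A shared peak was present at 97.5% of pairs with starts less than 100 bp apart, 93.7% from there to 250 bp, 96.5% to 500 bp, 87.8% to 1000 bp and 29.0% of 62 pairs at 1000 to 2000 bp. Windows of 1 kb make a shared peak less likely by construction at the longest distances. The median pileup was 84 where the genes overlapped (348 pairs, here with overlaps of up to 2 kb), 94 at less than 100 bp and 114 (quartiles 85 and 140) from there to 250 bp. It was 104 to 500 bp, 97.5 to 1000 bp and 113 in the 18 pairs with a shared peak at 1000 to 2000 bp, so it did not go on rising with distance.

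**Figure D3:**
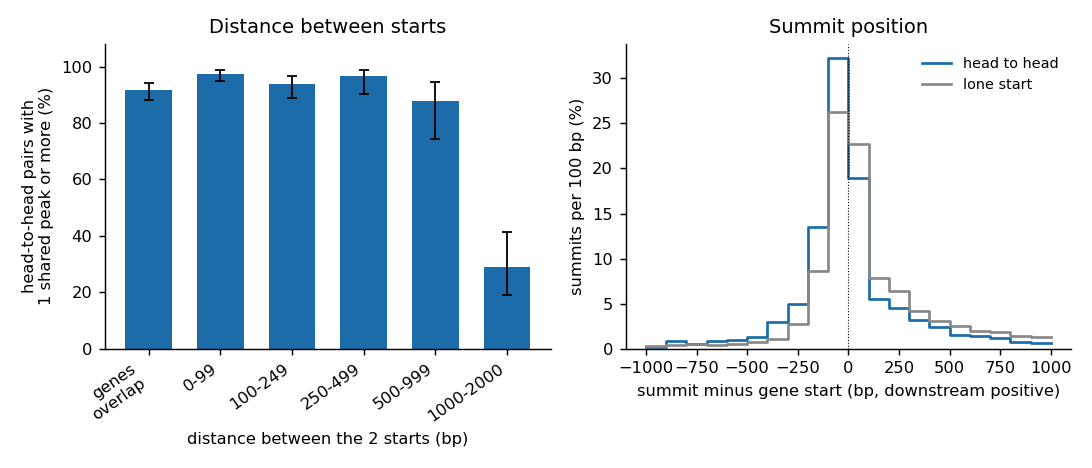
Left, share of head-to-head pairs with a shared peak (percent, Wilson 95% intervals) by the distance between their starts in bp. Right, position of summits relative to the gene start in bins of 100 bp, as a percent of all summits, for head-to-head pairs (blue) and lone starts (grey), whose medians are -30 and 25 bp. Each head-to-head summit is counted from both starts.

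Promoters in head-to-head peaks were richer in CpG than those of lone starts with a peak, and promoters in head-to-tail peaks were not. The ratio of observed to expected CpG over the 300 bases had a median of 0.843 (quartiles 0.712 and 0.973) in 1499 promoters of head-to-head peaks, against 0.754 (0.569 and 0.899) in 6607 promoters of lone starts with a peak. In 358 promoters of head-to-tail peaks it was 0.711 (0.544 and 0.861), against 0.749 in 7021 promoters of single-gene peaks. It was 0.176 in 3119 lone starts without a peak and 0.575 over all 15136 promoters used. Promoters with a ratio of at least 0.6 were 87.7% of the head-to-head set, 68.4% of the head-to-tail set and 71.8% of the lone starts with a peak. Among such CpG-rich promoters the gap in the share with a peak was small, with 97.6% of 574 head-to-head pairs (95.9 to 98.5) against 96.9% of 4897 lone starts (96.3 to 97.3). With neither promoter CpG-rich, 27 of 36 head-to-head pairs had a shared peak (interval 58.9% to 86.3%). Of 4829 lone starts that were not CpG-rich, 38.6% had a peak (37.2 to 39.98). A pair has a second start at which to meet a peak. No share per start was taken here, and pairs and lone starts are not compared like for like. The gap in height remained among CpG-rich promoters, with a median pileup of 98 (71 and 129) at head-to-head pairs and 72 (45 and 106) at lone starts.

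Of the 6 motifs searched, the ETS motif had the largest gap, in percentage points, between head-to-head and lone starts with a peak. ETS factors such as GABP bind promoters of many housekeeping genes. The letters CCGGAAG, on either strand, stood in 27.9% of promoters in head-to-head peaks (25.7 to 30.2) and in 15.3% of promoters of lone starts with a peak (14.5 to 16.2), against 12.1% of all promoters. Windows of a head-to-head pair can overlap and so count a match again. With the plus-strand gene alone the share was 28.5%. Among CpG-rich promoters the shares were 29.7% in head-to-head peaks and 17.7% at lone starts. Head-to-tail promoters had the ETS motif in 24.9% (20.7 to 29.6). The YY1 motif stood in 3.67% of head-to-head promoters (2.83 to 4.75), 1.74% of lone starts with a peak and 1.34% of all promoters. In the same order of sets, SP1 stood in 66.9%, 68.0% and 46.3%, NFY in 41.2%, 39.1% and 39.6%, and NRF1 in 2.87%, 2.22% and 1.46%. Among CpG-rich promoters SP1 was less frequent in head-to-head peaks (71.0%) than at lone starts (77.3%). TATAAA stood in 5.20% of head-to-head promoters, 6.63% of lone starts with a peak, 22.3% of lone starts without one and 13.9% of all promoters. At head-to-head pairs the median pileup was 109 with the NFY motif and 80.5 without it, 97 with SP1 and 80.5 without it, and 90 with ETS and 94 without it. At lone starts it was 76 and 58 for NFY, 70 and 51 for SP1, and 75.5 and 61 for ETS.

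Among 28 pairs known from the literature for facing starts, 23 had a shared peak. The list was written from general knowledge, and the pairs need not be typical. Values are given for 21 of these 23 pairs. Of these, 7 hold a gene of the DNA repair and damage signalling list, and their pileups ranged from 62 to 171. Chek2/Hscb, a checkpoint kinase and a co-chaperone of iron-sulfur cluster assembly, with ends 7 bp apart, had a pileup of 171 and a fold of 15.5 at chromosome 5, 110839434 to 110840138. Prkdc/Mcm4, the DNA-dependent protein kinase and a subunit of the replicative helicase, had 154. Atm/Npat, a kinase of the DNA damage response and a coactivator of histone genes, had 148 (125 to 174). These 3 exceeded the upper quartile of 128 of head-to-head peaks. Ercc8/Ndufaf2, of which Ercc8 acts in nucleotide excision repair, had 99, and Fen1/Tmem258, of which Fen1 is a flap endonuclease, had 62, equal to the lone-start median.

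The remaining pairs, some of them also with a gene of the DNA repair list, ranged widely. Mrps12/Sars2, which encode a protein of the mitochondrial ribosome and the mitochondrial seryl-tRNA synthetase, had a pileup of 142. Brca1/Nbr1, a homologous recombination gene and an autophagy receptor, had 128 at chromosome 11, 101551814 to 101553058. Hspd1/Hspe1, the mitochondrial chaperonin and its co-chaperonin, had 121 (100.4 to 145) at chromosome 1, 55087291 to 55088532. Ppat/Paics, both of purine synthesis, had 116. At the low end, Col4a1/Col4a2, collagens of basement membranes, had 57, Surf1/Surf2 had 46 and Tk1/Afmid had 34 (23.5 to 47.5), with starts 584 bp apart. Trp53/Wrap53, the p53 gene and its partner, shared 3 peaks, with pileups of 107, 54 and 130. Of the 5 pairs without a shared peak, Srsf2/Mfsd11 and Akt1s1/Tbc1d17 had a peak of 2000 bp or more at both genes. Brip1/Ints2 and Nudt1/Mrm2 have ends 9466 and 6052 bp apart in this annotation. Col4a3/Col4a4, whose ends are 113 bp apart, had no gene-end peak.

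**Figure D4:**
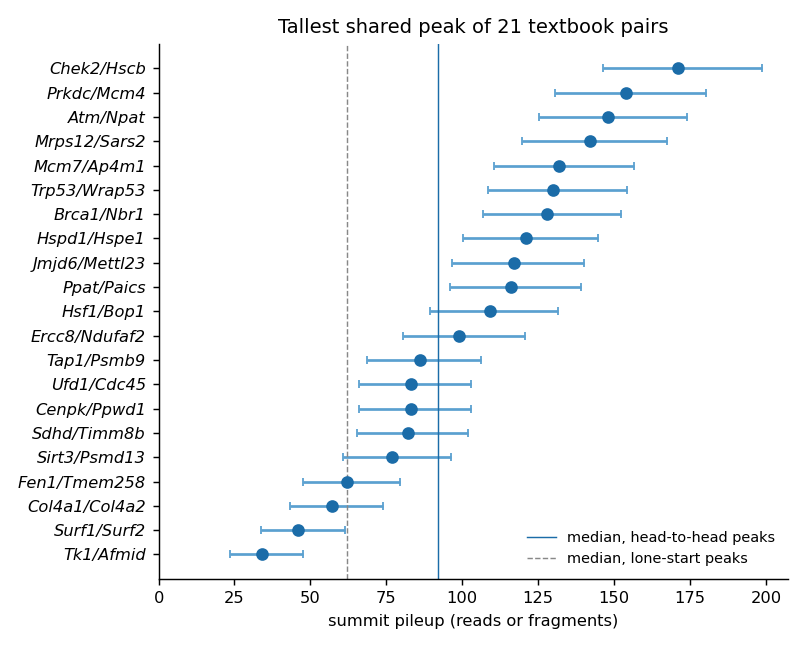
Summit pileup (reads or fragments) of the tallest shared peak of 21 known pairs that had one, with exact Poisson 95% intervals. The solid line is the median of head-to-head peaks, 92, and the dashed line that of lone-start peaks, 62; the pairs run from 34 (Tk1/Afmid) to 171 (Chek2/Hscb).

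The 8 tallest shared peaks had pileups of 232 to 263, and 3 of them lie close together on chromosome 17. Tomm40/Nectin2, of which Tomm40 forms the import pore of the outer mitochondrial membrane, had the highest pileup, 263 (232 to 297), at chromosome 7, 19715252 to 19716213, a head-to-tail pair. Pa2g4/Erbb3 followed at 257, Khsrp/Slc25a41 at 248, Tsks/Ap2a1 at 240 and Bora/Mzt1 at 235, the last a pair of mitotic genes. Gm3435/Gm3448 (243), Gm3417/9030025P20Rik (234) and Ermard/Tcte3 (232) lie between 14977864 and 15041957 on chromosome 17. Whether these loci are copies of each other was not tested, so their heights are uncertain. The highest folds were 21.8 at Sec61a2/Dhtkd1, 21.6 at Kctd19/Lrrc36 and 21.5 at Recql5/Sap30bp. The lowest shared peaks had a pileup of 6, at Miip/Fv1, Pom121/Nsun5, Tmem86b/Ppp6r1 and Pcdha6/Gm38666. Tail-to-tail peaks reached 126 at Dcst2/Zbtb7b and 103 at Mien1/Erbb2.

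Peaks at 4 or more genes were 3 in number. The peak at the common 3' end of the gamma protocadherins on chromosome 18 met 24 annotated genes, with a pileup of 114. The common 3' end of the Ugt1a genes, which encode glucuronosyltransferases, had a peak at 7 genes with a pileup of 15. The remaining peak, with a pileup of 95, met 5 genes around Usp49 and Tomm6 on chromosome 17. At the width limit, the widest shared peaks lay at Poc1b/Galnt4 (1981 bp, pileup 61) and Dchs2/Gm10710 (1964 bp, 25), and the narrowest beyond it at Utp18/Mbtd1 (2007 bp, 129) and Gabpa/Atp5j (2013 bp, 148).

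Genes of DNA repair, mitochondria and histones had larger shares at shared peaks than all genes had, and pluripotency genes had none. Over all protein-coding genes 18.9% had an end in a shared peak, and 25.6% had the end of another gene within 1 kb, a property of the annotation alone. No test of a list was made. Of 78 genes for mitochondrial ribosomal proteins, 39 were at a shared peak (50.0%, 39.2 to 60.8), led by Mrps16 (pileup 220) and by Mrpl18 (202), which lies beside Tcp1, a subunit of the cytosolic chaperonin. A neighbouring end within 1 kb was present for 56.4% of them. Of 81 respiratory chain genes 37 were at one (45.7%), led by Uqcrq (150), a subunit of complex III, and Ndufs8 (147), a subunit of complex I. Cytosolic ribosomal protein genes had 31 of 80 (38.8%), led by Rpl15 (193) and Rpl37 (176). The median pileup of these 31 genes was 76, below the 84.5 of those with single-gene peaks only. With the summit required in the windows, 22 of these 31 genes were left.

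DNA repair genes had 27 of 58 at a shared peak (46.6%, 34.3 to 59.2), with a median pileup of 128 per gene, against 84 for the 29 with single-gene peaks only. Without the genes of the 28 known pairs, which this list partly holds, the count was 18 of 48 (37.5%, 25.2 to 51.6), and the median pileups were 95.5 per gene at shared peaks and 83 at single-gene peaks only. Over all protein-coding genes the same medians were 81 at shared peaks and 60 at single-gene peaks only. Xrcc3/Zfyve21, of which Xrcc3 acts in homologous recombination, had a pileup of 181. Replication and cell cycle genes had 16 of 50 (32.0%), among them Ccna2 (162), a cyclin of S phase, beside Bbs7. Proteasome genes had 12 of 42 (28.6%), led by Psmb3 (153) and Psma4 (118). Zinc finger genes named Zfp with a number had 47 of 360 (13.1%), below the value over all genes, though 90.0% of them had some gene-end peak. A neighbouring end within 1 kb was present for 14.4% of these Zfp genes, against 25.6% of all genes. Of those with such an end, 82.7% were at a shared peak, against 67.4% over all genes with one. Zfp654/Cggbp1 reached 211.

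Replication-dependent histone genes, which lie in dense clusters and are used in S phase, had the highest share, 37 of 67 (55.2%, 43.4 to 66.5). Their shared peaks were tall, with a median pileup of 141 per gene, against 81 over all genes. The 15 histone genes with single-gene peaks only had a median of 106, against 60 over all such genes, so height was not particular to the shared peaks. H2ac12/H2bc12, a head-to-head pair of an H2A and an H2B gene, had a pileup of 180 but a fold of 7.09, and H2ac10/H3c8 had 179 with a fold of 5.95. These folds lay below the lower quartile of 7.34 of all shared peaks. Histone genes have near-identical copies, so reads may be split or left out among them.

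None of the 32 core and naive pluripotency genes had an end in a shared peak (0%, upper bound 10.7), while 28 had single-gene peaks with a median pileup of 87. A neighbouring end within 1 kb was present for 3.13% of the list, that is for 1 gene, and the rule needs neighbouring ends within reach of a peak. Germ layer regulators had 3 of 32 (9.38%) at shared peaks. They were Foxa3, an endoderm factor, beside Sympk (pileup 120), the mesoderm factor Tbx6 beside Ypel3 (60), and T, which encodes Brachyury, beside LOC115486424 (25). Hox genes had 4 of 39 (10.3%), at Hoxa5/Hoxa6 (30 and 16) and Hoxb8/Hoxb7 (17). The median pileup of these 4 genes was 23.5, below the 28 of Hox genes with single-gene peaks only. Adult tissue genes had 2 of 24, Apoa2 beside Tomm40l (164) and Sftpc beside Bmp1 (20). Of 1104 olfactory receptor genes, Olfr94 alone was at a shared peak (0.0906%), a tail-to-tail site with Ubd and a pileup of 28. Among all genes with a neighbouring end within 1 kb, 67.4% were at a shared peak. The share was 88.6% for mitochondrial ribosomal, 80.4% for respiratory chain, 74.3% for DNA repair, 65.9% for histone and 11.1% for olfactory receptor genes. It was 89.3% for cytosolic ribosomal, 82.7% for Zfp, 80.0% for proteasome, 72.7% for replication and cell cycle and 50.0% for Hox genes. For DNA repair genes outside the known pairs this share was 65.4%. Histone genes and these DNA repair genes thus had no larger share than all genes once a neighbouring end was present.

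**Figure D5:**
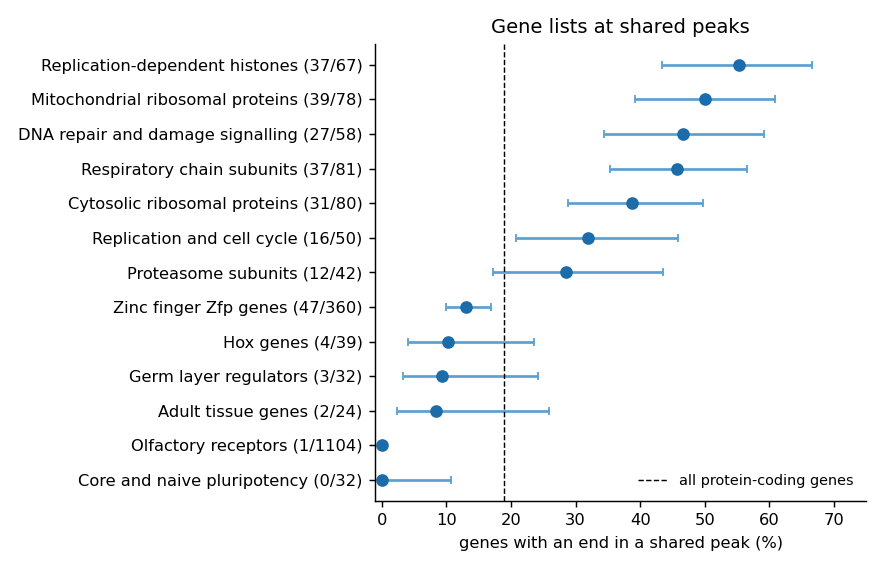
Share of the genes of each list on chromosomes 1 to 19 with an end in a shared peak, in percent, with Wilson 95% intervals and counts in the labels. The dashed line is the 18.9% of all protein-coding genes; histone, mitochondrial and DNA repair genes lie to its right, and pluripotency genes and olfactory receptors at or near 0.

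Shared peaks were found on every autosome. Their number ranged from 35 on chromosome 18 to 235 on chromosome 11. The share of a chromosome's protein-coding genes in a shared peak ranged from 12.5% on chromosome 6 to 25.5% on chromosome 19, and the median pileup from 62 on chromosome 14 to 99 on chromosome 13.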

How the data were processed

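ATAC-seq of untreated E14 NSD1-dTAG cells (0 h, 1 library, no replicate) was analysed. Groups follow the sample titles, because 2 treatment labels, those of the 1 h and the 24 h sample, give 6 h. Upstream software, from the submitters' processing notes, comprised MACS2 2.2.6, deepTools 3.2.1, SAMtools 1.9, Bowtie2 2.3.4.1 and bcl2fastq 2.20.0.422. Read filters, duplicate handling, the Tn5 shift and total depth were not given in the sources used here. Values in the authors' deposited peak list are a score, the fold enrichment as a ratio, -log10 p and -log10 q, with q at most 0.05. Summit pileups were solved from fold and -log10 p and came out whole for 77626 of 77629 peaks (tolerance 0.01). Positions count from 1.

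Gene ends came from a RefSeq gene table, and strands and sequences from a RefSeq promoter table, both of GRCm38.p6. Strands were used for 16456 of 20661 genes, none on chromosome 18. Where both ends of a gene were in reach of a peak, the end nearer to the summit was used. Promoter entries lay within 500 bp of the annotated start, which is the gene's outermost. Histone genes were matched through older symbols.

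Members, lists and pairs were chosen with earlier results of these data known. The genes named were the known pairs, the 8 highest and 5 lowest pileups, the 5 highest folds, the 5 peaks with most genes, the 2 peaks on each side of the width limit and the 2 tallest of each list. Others, such as the tallest peaks of a class, all members of small lists and pairs without a shared peak, were chosen after their values were seen, as were the 8 printed windows. Values of 2 known pairs, which the rule would name, are not reported here. The functions were tested on simulated data. Alternatives are given in the closing section. Software was Python 3.11.15 with pandas 2.3.3, numpy 2.4.6, matplotlib 3.10.9 and scipy 1.17.1.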

Additional observations from a re-analysis of the deposited data

How the results depend on the processing

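Of 71 alternative values, 21 were ratios between shared and single-gene peaks (pileup, fold or CpG), and each of these stayed above 1. The ratios between orientation classes were given no alternative. The ratios of pileup and fold between shared and single-gene peaks moved by less than 1 SD over chromosomes under every window, overlap, q, width and gene choice tried. So did the pileup ratio with -log10 q in its place (1.53) and with 1 peak for each pair of genes (1.53), a choice made after seeing the data. The fold ratio of 1.11 fell to 1.065 with windows of 2 kb and 1.077 with a -log10 q of at least 5. Width ranges are not among these alternatives. Among peaks under 500 bp the median fold was lower for shared peaks, 4.54 against 5.19 for single-gene peaks. In each wider range it was higher. The number of shared peaks was 3233 with windows of 2 kb and 1318 with widths under 1000 bp. The share of gene-end peaks that are shared was 12.7% with windows of 500 bp, 17.6% with windows of 2 kb, 12.997% with the summit in the windows, 12.8% with widths under 1000 bp, 13.5% without predicted genes and 10.2% without overlapping genes. The head-to-head share was 90.0% with ends at most 2 kb apart and 93.8% with the summit within 1 kb of both ends, and 97.6% with both promoters CpG-rich, a choice made after seeing the data. The head-to-tail share was 47.9% and 61.9% under the first 2 of these. The tail-to-tail share was 25.1% with ends at most 500 bp apart, 17.4% with ends at most 2 kb apart, 13.5% by summit and 16.5% with a -log10 q of at least 5. Fewer pairs and peaks enter under the stricter choices; otherwise the cause was not tested. With the summit required, 2 of the 4 Hox genes, 1 of the 2 adult tissue genes and 0 olfactory receptors were at shared peaks. The deposited list holds no pileup under 6, so weaker sites cannot be seen. No paired analysis was possible because each group has 1 sample.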

Other observations

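Outside the chromosomes and widths of the rule, 45 peaks under 2000 bp on the X chromosome met the ends of 2 or more protein-coding genes. They held 86 of its 966 genes (8.90%), below the 12.5% of chromosome 6, the lowest autosome, and had a median pileup of 57. No such peak was found on the Y chromosome, which has 256 annotated protein-coding genes. On chromosomes 1 to 19, 34 peaks of 2000 bp or more met the ends of 2 or more genes, with a median pileup of 97.5.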
